A study of Mus musculus with 9 samples.

Results

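The genes described here are 9 mouse genes of the antioxidant program usually ascribed to the transcription factor NRF2: Nqo1, Gstp1, Slc7a11, Hmox1, Gclc, Gclm, Txnrd1, Srxn1 and Gsr. They were chosen by name, with earlier results of the same arrays known, and each was read from the probe set that carries its symbol alone. All 9 were measured, out of 19938 genes in all. The arrays covered 3 cultures of mouse pluripotent cells with 3 arrays each. Embryonic stem cells (ESCs), the counterpart of the naive epiblast, were of strain 129 and kept in 2i, by its usual meaning the GSK3 inhibitor CHIR99021 (3 µM) with the MEK inhibitor PD0325901 (1 µM). Epiblast stem cells (EpiSCs), the counterpart of the later primed epiblast, were of strain CD1 and kept either in CHIR99021 (3 µM) with the tankyrase inhibitor XAV939 (2 µM), which stabilises Axin, or in FGF2 (10 ng/ml) with activin (10 ng/ml). All doses are those listed, for every sample alike, in the labels. All media shared 10% fetal bovine serum and beta-mercaptoethanol, a reducing agent that helps cultured cells take up cystine. Strain therefore goes with cell type in both comparisons against ESCs, while both EpiSC groups share a strain. Whether arrays of 1 group are separate cultures is not labelled, so their spread may be technical.

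NRF2, encoded by Nfe2l2, is held in the cytoplasm and sent for degradation by KEAP1. Electrophiles and oxidants modify cysteines of KEAP1, after which NRF2 accumulates, pairs with a small MAF protein and binds antioxidant response elements, while BACH1 competes for the same elements as a repressor. A separate route of NRF2 turnover runs through phosphorylation by GSK3 and recognition by beta-TrCP. The classical targets make and recycle glutathione, reduce thioredoxin and quinones, conjugate electrophiles and break down haem.

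The groups carried the markers of their labels. All 7 naive ESC markers fell and all 6 primed epiblast markers rose in each EpiSC group against ESCs (limma, adjusted p under 0.05), and all 5 markers shared by both states stayed above the array medians, which ran from 5.57 to 5.65 in log2 units. The linear levels of 10 fibroblast or feeder markers summed to 360 to 379 per array in ESCs, 451 to 488 in CHIR/XAV EpiSCs and 385 to 393 in FGF2/activin EpiSCs. Thy1 alone of them was called higher in CHIR/XAV EpiSCs against ESCs, from 5.44 to 7.21. In FGF2/activin EpiSCs 4 were called higher, Twist2 (0.43), Postn (0.36), Thy1 (0.25) and Col1a2 (0.18). Twist1 (-0.34) and Pdgfra (-0.25) were called lower there. Col3a1, Twist1, Postn, Lum, Dcn and Pdgfra lay below the array median in all 3 groups. The 10 extraembryonic endoderm markers summed to 1161 to 1204, 2077 to 2236 and 4914 to 5090 in the same order, mostly through Sparc, while Gata4, Sox17, Afp, Ttr, Amn and Pdgfra lay below the array median throughout. Dab2 also rose against ESCs, by 1.51 in CHIR/XAV and 1.56 in FGF2/activin EpiSCs. Cubn (1.63) and Gata6 (0.50) were called higher in FGF2/activin EpiSCs alone. Every endoderm marker called lower was among those below the median. The 8 trophoblast markers summed to 770 to 784, 329 to 372 and 496 to 531, with Elf5, Krt7 and Tpbpa below the median in all groups. Tfap2c fell from 9.05 in ESCs to 6.07 in CHIR/XAV and 7.26 in FGF2/activin EpiSCs. Cdx2 fell too (-1.07 and -0.84), as did Elf5 in FGF2/activin EpiSCs (-0.36). Ascl2 (1.5 and 1.61), Hand1 (0.51 and 1.11) and Gata3 (0.34 and 1.07) were called higher in both EpiSC groups against ESCs. The part of these markers' cells in the levels given below was not tested.

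Promoters are shown for the 3 genes with the largest differences between cultures (Nqo1, Gstp1 and Slc7a11) and for 3 others in which letters of an antioxidant response element were found. Each line gives the 250 bases before the annotated start, 5′ to 3′ on the strand of the gene, from RefSeq on GRCm38.p6, with capitals marking a match to a motif given after the sequences (a match on the opposite strand appears as its reverse complement).

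Nqo1 (chr8:107403206-107403455, minus strand): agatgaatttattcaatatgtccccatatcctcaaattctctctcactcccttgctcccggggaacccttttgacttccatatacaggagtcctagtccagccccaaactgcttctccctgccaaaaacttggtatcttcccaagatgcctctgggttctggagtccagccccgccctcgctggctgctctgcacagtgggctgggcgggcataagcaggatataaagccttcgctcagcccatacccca

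Gstp1 (chr19:4037913-4038162, minus strand): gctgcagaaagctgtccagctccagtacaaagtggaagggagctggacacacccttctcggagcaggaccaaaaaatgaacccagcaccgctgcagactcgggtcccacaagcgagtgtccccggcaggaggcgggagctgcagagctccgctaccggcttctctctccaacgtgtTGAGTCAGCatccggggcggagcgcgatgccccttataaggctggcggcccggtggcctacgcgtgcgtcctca

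Slc7a11 (chr3:50443614-50443863, minus strand): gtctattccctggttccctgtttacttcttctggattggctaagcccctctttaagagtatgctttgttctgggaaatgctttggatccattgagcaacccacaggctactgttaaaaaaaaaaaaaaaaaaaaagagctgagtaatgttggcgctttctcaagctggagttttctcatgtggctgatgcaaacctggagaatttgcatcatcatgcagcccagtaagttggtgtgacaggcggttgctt

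Gclm (chr3:122245307-122245556, plus strand): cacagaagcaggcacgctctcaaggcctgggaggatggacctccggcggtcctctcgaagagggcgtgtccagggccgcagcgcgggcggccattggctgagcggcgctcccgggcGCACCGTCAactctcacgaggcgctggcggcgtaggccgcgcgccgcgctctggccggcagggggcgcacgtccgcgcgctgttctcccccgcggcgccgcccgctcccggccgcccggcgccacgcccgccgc

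Srxn1 (chr2:152105274-152105523, plus strand): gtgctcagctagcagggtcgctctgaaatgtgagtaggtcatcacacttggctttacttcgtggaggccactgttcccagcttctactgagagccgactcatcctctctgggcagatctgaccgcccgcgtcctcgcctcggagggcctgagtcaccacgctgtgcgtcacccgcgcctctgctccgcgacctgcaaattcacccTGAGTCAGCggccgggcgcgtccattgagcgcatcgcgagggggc

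Txnrd1, second of 3 starts (chr10:82858956-82859205, plus strand): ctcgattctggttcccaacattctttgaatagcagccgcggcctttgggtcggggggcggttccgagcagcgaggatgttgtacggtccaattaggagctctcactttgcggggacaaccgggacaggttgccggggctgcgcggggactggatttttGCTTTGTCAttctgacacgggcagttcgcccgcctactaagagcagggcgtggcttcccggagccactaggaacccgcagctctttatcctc

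The core TGACNNNGC was searched on both strands of windows of 300 bases, from 250 before to 50 after the start, which 6 of the 9 genes had; it occurs in 12.4% of 32851 such windows. Gclm holds it 134 bases before the start, Txnrd1 92 bases before its second start, and Srxn1 29 bases after the start, outside the printed stretch, all on the minus strand relative to the gene. A second form, TGANTCAGC, which overlaps the first only where its N is C, was added after these sequences had been seen and occurs in 1.19% of windows. Gstp1 holds it 74 bases before the start and Srxn1 45 bases before, both as TGAGTCAGC on the plus strand, and the neighbouring paralog Gstp2 holds it 89 bases before. The windows of Nqo1 and Slc7a11 hold neither form. Bases outside the windows were not searched, so an element farther from the start would have been missed. The windows also differ in CpG content. Nqo1 has 5 CpG dinucleotides in 300 bases and Slc7a11 has 4, against 20 in Gstp1, 26 in Srxn1 and 48 in Gclm. The 3 windows of Txnrd1 have 3, 27 and 12, the first being lower than in Nqo1 or Slc7a11. The median over all windows is 7.

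**Figure D1:**
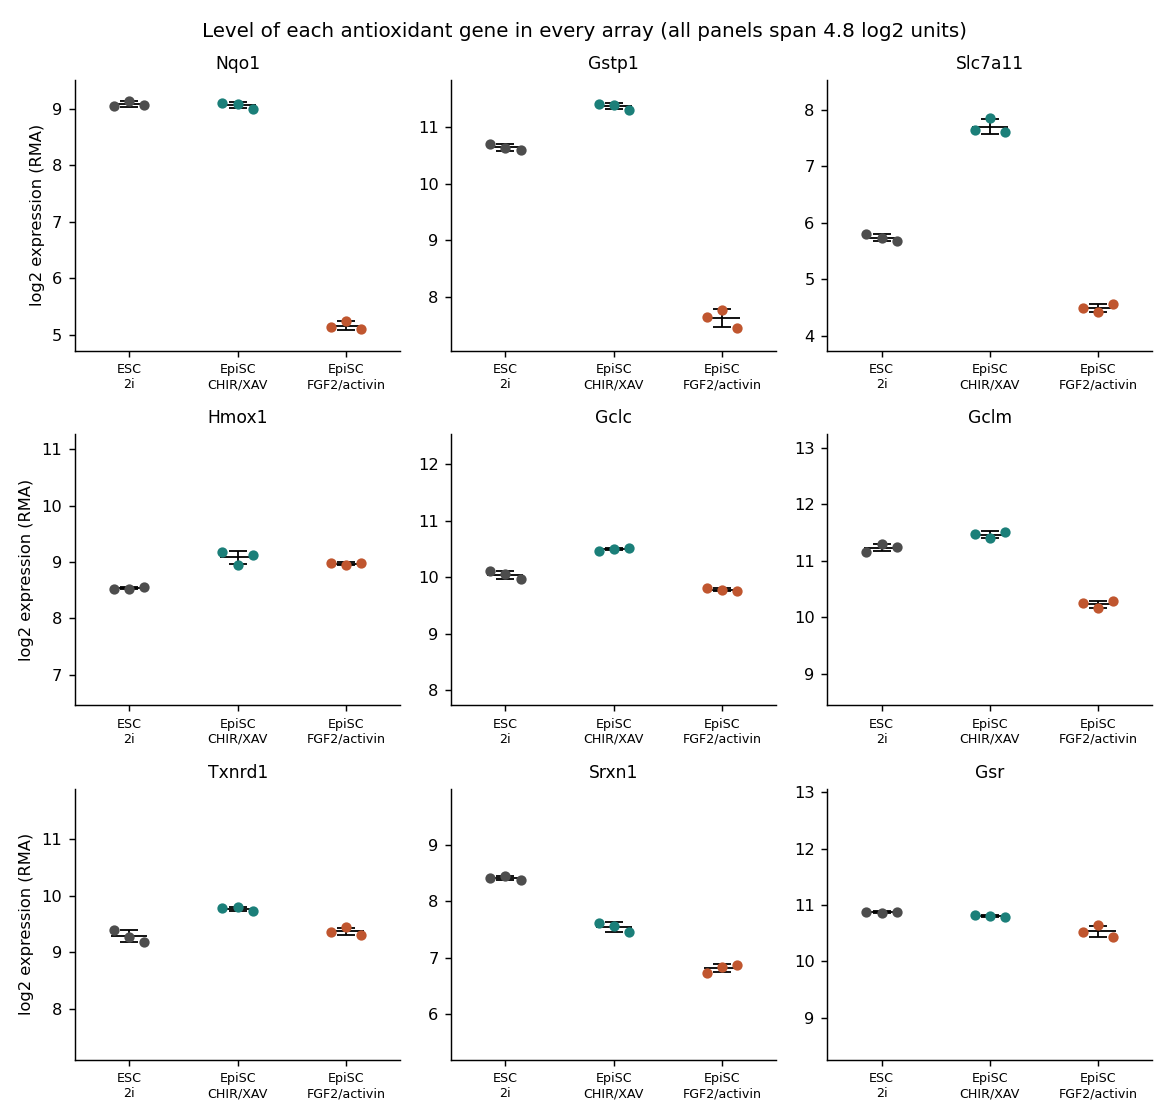
Log2 expression of each of the 9 antioxidant genes on every array; points are arrays, horizontal marks are group means and bars are SD (n = 3), and every panel spans the same range. Nqo1 and Gstp1 are lowest by far in FGF2/activin EpiSCs. Slc7a11 is lowest there and highest in CHIR/XAV EpiSCs, while Hmox1 is higher in both EpiSC groups than in ESCs.

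Nqo1 encodes a quinone reductase that uses NADH or NADPH and is the most used readout of NRF2 activity. Its log2 levels were 9.04, 9.14 and 9.06 in ESCs, 9.10, 9.09 and 9.0 in CHIR/XAV EpiSCs, and 5.13, 5.24 and 5.10 in FGF2/activin EpiSCs. The first 2 cultures overlapped, and every FGF2/activin array lay far below both and below the array medians. The mean in FGF2/activin EpiSCs was 5.15 ± 0.08 (SD, n = 3) against 9.08 ± 0.05 in ESCs, a difference of -3.93 log2 units (SE 0.07), or 15.2-fold, and CHIR/XAV EpiSCs exceeded FGF2/activin EpiSCs by 3.91, or 15.0-fold. CHIR/XAV EpiSCs and ESCs differed by -0.02 (SE 0.07), a difference whose sign turned after median centring. A level this dim cannot be told from background without detection calls, in which case the fold understates the change. These differences are descriptions without a test, as for the other 8 genes, because the genes were chosen with these values known.

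Gstp1 encodes the pi-class glutathione S-transferase, which conjugates electrophiles. On its own probe set the levels were 10.70, 10.64 and 10.59 in ESCs, 11.42, 11.40 and 11.31 in CHIR/XAV EpiSCs and 7.64, 7.77 and 7.45 in FGF2/activin EpiSCs. The 3 groups did not overlap, with CHIR/XAV highest and FGF2/activin lowest. The difference was -3.02 (SE 0.08) for FGF2/activin EpiSCs against ESCs, 0.74 (SE 0.08) for CHIR/XAV EpiSCs against ESCs and 3.76, or 13.5-fold, between the EpiSC groups. Gstp1 has a near-identical neighbour, Gstp2, and 2 further probe sets carry both symbols. These disagreed with the first on the order of CHIR/XAV EpiSCs and ESCs. One had means of 7.99 in ESCs, 6.83 in CHIR/XAV EpiSCs and 5.18 in FGF2/activin EpiSCs, and the other 9.45, 8.43 and 5.81, so that CHIR/XAV EpiSCs lay below ESCs by -1.16 and -1.02. All 3 probe sets had FGF2/activin EpiSCs lowest, by -2.81 to -3.64 against ESCs. The signals of Gstp1 and Gstp2 cannot be separated on the shared probe sets, and Gstp2 has no probe set of its own.

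**Figure D2:**
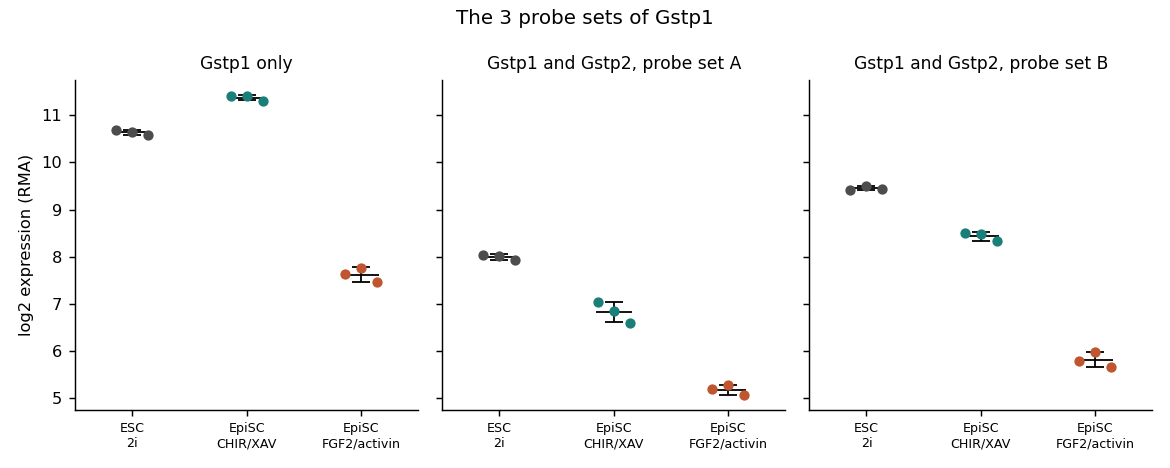
Log2 expression on the 3 probe sets that carry Gstp1, by array (points), with group means and SD (n = 3). The probe set of Gstp1 alone is highest in CHIR/XAV EpiSCs, at 11.38, whereas both probe sets shared with Gstp2 are highest in ESCs.

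The genes of glutathione supply differed in size and order. Slc7a11 encodes xCT, the cystine-importing subunit of the cystine/glutamate antiporter, and is also induced by ATF4, the transcription factor of the amino acid response. Its levels were 5.8, 5.73 and 5.67 in ESCs, 7.64, 7.85 and 7.61 in CHIR/XAV EpiSCs and 4.48, 4.41 and 4.56 in FGF2/activin EpiSCs. No groups overlapped, and ESCs stood close to the array median with FGF2/activin EpiSCs below it. CHIR/XAV EpiSCs exceeded ESCs by 1.97 (SE 0.08), or 3.91-fold, and FGF2/activin EpiSCs by 3.22, or 9.31-fold, while FGF2/activin EpiSCs differed from ESCs by -1.25. The level in FGF2/activin EpiSCs cannot be told from background, so both differences that involve it may understate the change. The ESC level, 5.73 with 51.7% of probe sets below it, may lie near background too. In that case the difference of CHIR/XAV EpiSCs from ESCs may also understate the change, and that of FGF2/activin EpiSCs from ESCs compares dim levels.

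Gclc and Gclm encode the catalytic and the modifier subunit of glutamate-cysteine ligase, the rate-limiting enzyme of glutathione synthesis. Gclc read 10.10, 10.05 and 9.97 in ESCs, 10.47, 10.50 and 10.51 in CHIR/XAV EpiSCs and 9.81, 9.77 and 9.75 in FGF2/activin EpiSCs. Gclm read 11.16, 11.30 and 11.24, then 11.48, 11.40 and 11.51, then 10.25, 10.16 and 10.28 in the same order. Both subunits were highest in CHIR/XAV EpiSCs and lowest in FGF2/activin EpiSCs without overlap. The EpiSC groups differed by 1.23 (SE 0.07) in the modifier and by 0.71 (SE 0.06) in the catalytic subunit. Against ESCs, FGF2/activin EpiSCs differed by -1.0 in Gclm and by -0.26 in Gclc, and CHIR/XAV EpiSCs by 0.23 and 0.46.

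Gsr encodes glutathione reductase, which regenerates reduced glutathione with NADPH. Its group means lay closest together among the 9 genes. It read 10.88, 10.85 and 10.88 in ESCs, 10.83, 10.80 and 10.79 in CHIR/XAV EpiSCs, and 10.52, 10.64 and 10.44 in FGF2/activin EpiSCs. FGF2/activin EpiSCs were again lowest without overlap, by -0.34 (SE 0.07) against ESCs. CHIR/XAV EpiSCs and ESCs differed by -0.06 (SE 0.07), and their nearest arrays lay 0.02 apart.

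Txnrd1 and Srxn1 serve the thioredoxin branch. Txnrd1 encodes the cytosolic thioredoxin reductase, a selenoprotein, and Srxn1 encodes sulfiredoxin, which restores overoxidised peroxiredoxins. Txnrd1 read 9.40, 9.28 and 9.19 in ESCs, 9.79, 9.80 and 9.73 in CHIR/XAV EpiSCs and 9.36, 9.44 and 9.31 in FGF2/activin EpiSCs. CHIR/XAV EpiSCs were above both other groups, which overlapped and differed by 0.08 (SE 0.07), or -0.05 after quantile normalization. Srxn1 read 8.41, 8.45 and 8.38 in ESCs, 7.62, 7.55 and 7.45 in CHIR/XAV EpiSCs and 6.73, 6.84 and 6.87 in FGF2/activin EpiSCs. Here ESCs were highest, and both EpiSC groups were below them without overlap, by -0.87 (SE 0.07) in CHIR/XAV and -1.60 in FGF2/activin EpiSCs.

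Hmox1 encodes haem oxygenase 1, which opens the haem ring and releases iron and biliverdin, and is the classical target of BACH1 repression. Its levels were 8.53, 8.53 and 8.55 in ESCs, 9.17, 8.95 and 9.13 in CHIR/XAV EpiSCs and 8.99, 8.94 and 8.98 in FGF2/activin EpiSCs. Both EpiSC groups were above ESCs, by 0.55 and 0.43 (SE 0.07 each), and overlapped each other. It was the one gene of the 9 that was higher without overlap in FGF2/activin EpiSCs than in ESCs.

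**Figure D3:**
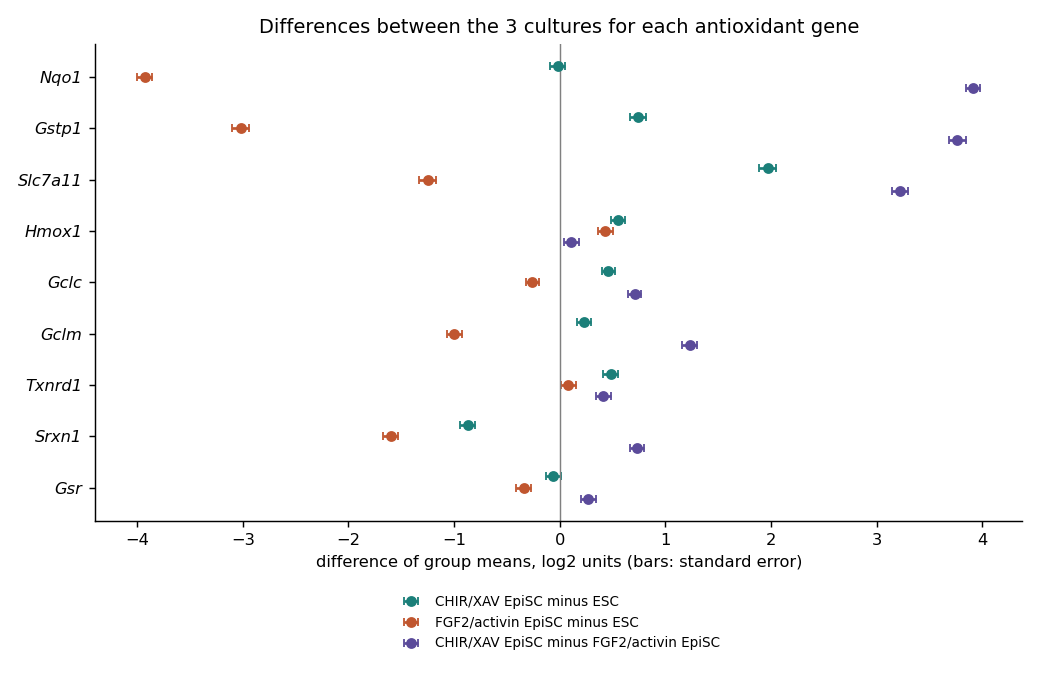
Differences of group means in log2 units for the 9 antioxidant genes in the 3 comparisons; bars are standard errors from the fit over all genes. Nqo1 and Gstp1 differ most between the EpiSC groups, by 3.91 and 3.76, while Hmox1 differs by 0.11.

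A gene was taken to follow Nqo1 in a comparison when its difference had the sign of Nqo1's and the arrays of both groups did not overlap. Against ESCs, FGF2/activin EpiSCs were lower in Nqo1 and in 6 of the other 8 genes, the exceptions being Hmox1, which was higher, and Txnrd1, which overlapped. Over all 19938 genes, 66.6% did not overlap in that comparison, 29.6% being higher and 36.9% lower. Between the EpiSC groups, CHIR/XAV was higher in Nqo1 and in 7 of the other 8 genes, with Hmox1 overlapping, against 52.0% of all genes without overlap, 27.4% higher and 24.6% lower. With single arrays left out, the count of 7 ran from 7 to 8, where 8 includes Hmox1. A difference of 2-fold or more without overlap was reached by 5 of the 9 genes against ESCs, Nqo1, Gstp1, Slc7a11, Gclm (at the limit) and Srxn1, where 3.45% of all genes were lower to that extent. Between the EpiSC groups it was reached by 4, Nqo1, Gstp1, Slc7a11 and Gclm, beside 1.62% of all genes. Because the 9 genes were chosen with these contrasts known, nothing is read from these shares.

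Between CHIR/XAV EpiSCs and ESCs Nqo1 overlapped, but 6 genes were higher in CHIR/XAV EpiSCs without overlap (Gstp1, Slc7a11, Hmox1, Gclc, Gclm and Txnrd1) and 2 were lower (Srxn1 and Gsr), beside 53.2% of all genes without overlap, 27.1% higher and 26.1% lower. Of the 9, Slc7a11 was higher by 2-fold or more, as were 5.03% of all genes. Since the sign of Nqo1's own difference is not settled, the count of genes that follow it here, 2, became 6 after median centring, without the second ESC array and without the third CHIR/XAV array. In Gstp1, Slc7a11, Gclc and Gclm all CHIR/XAV arrays lay above and all FGF2/activin arrays below the ESC arrays, an arrangement found in 2.24% of all genes. For Gstp1 this holds on its own probe set, while on the 2 shared with Gstp2 CHIR/XAV EpiSCs lay below ESCs (-1.16 and -1.02). The median difference of the 9 genes was 0.46 in CHIR/XAV EpiSCs against ESCs, -1.0 in FGF2/activin EpiSCs against ESCs and 0.73 between the EpiSC groups, where the medians over all genes were -0.03, -0.08 and 0.05. The 3 comparisons share their groups and are not independent of each other. Since the 9 genes were chosen with these values known, nothing is read from the shares and medians set beside them.

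The genes most like Nqo1 over the 9 arrays were found by centring each gene on its own mean and taking the root mean square distance to Nqo1. The nearest 5 among the other genes were Sycp3 (0.14 log2 units), a synaptonemal complex gene of meiosis, Trim25 (0.22), which encodes a ubiquitin ligase of RNA sensing, Dppa4 (0.22) and Dppa2 (0.30), a pair of neighbouring genes for DNA-binding proteins of pluripotent cells, and Mael (0.31), a germline gene of the piRNA pathway. In FGF2/activin EpiSCs Sycp3 stood at 5.02 ± 0.13 (SD, n = 3) against 9.02 ± 0.06 in ESCs and 8.76 ± 0.12 in CHIR/XAV EpiSCs. Dppa4 stood at 4.85, 8.97 and 9.24 in the same groups, and Mael at 4.24, 7.66 and 7.44. Of the antioxidant genes Gstp1 came nearest, at rank 7 of 19937 (0.40), followed by Slc7a11 at rank 65, Gclm at rank 129 and Srxn1 at rank 139. Gclc (rank 1090), Gsr (2441), Txnrd1 (6868) and Hmox1 (14763) were farther away. In FGF2/activin EpiSCs Nqo1, Sycp3, Trim25, Dppa4 and Mael all lay below the array medians, where levels cannot be told from background, so the distances and ranks depend on values that may be floors. The distance weighs size as well as shape, and with 3 groups of close replicates it rests mainly on 3 group means.

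**Figure D4:**
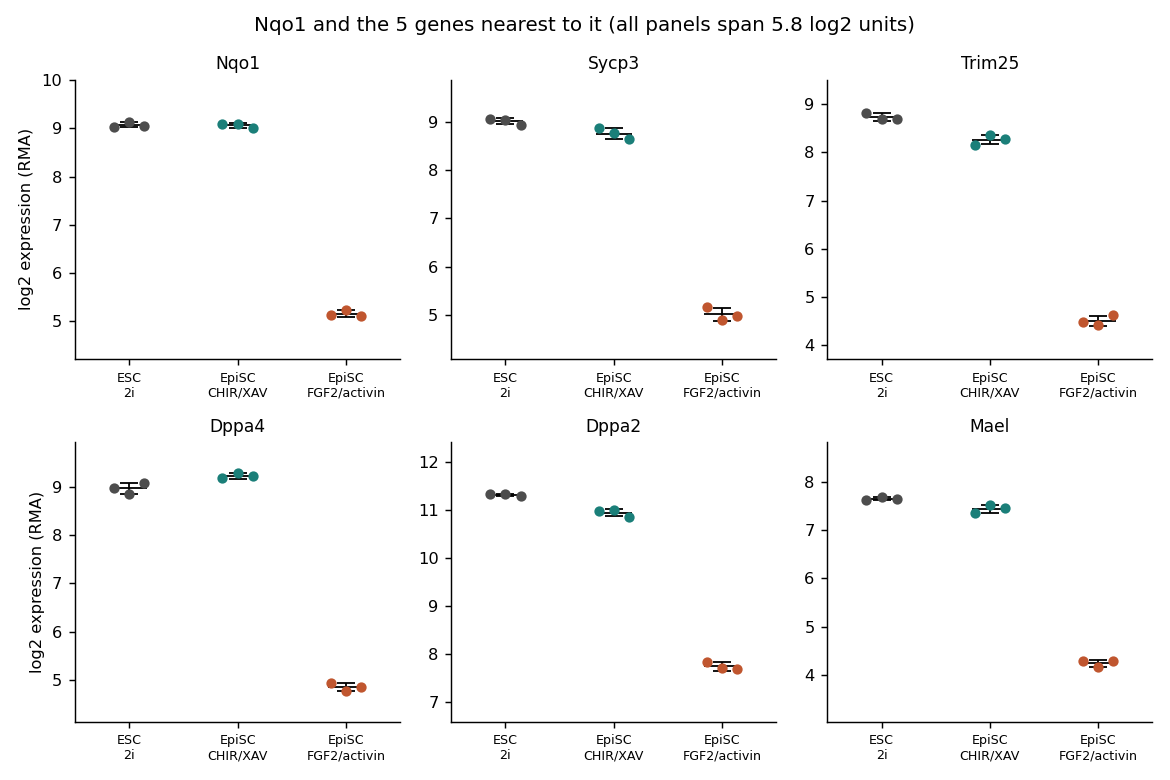
Log2 expression of Nqo1 and of the 5 genes nearest to it, by array (points), with group means and SD (n = 3); every panel spans the same range. In all 6 genes every FGF2/activin array lies below every other array, with differences of means against ESCs of -3.41 (Mael) to -4.23 (Trim25).

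The regulators of NRF2 went both ways. Of 16 regulators 3 rose and 5 fell in CHIR/XAV EpiSCs against ESCs, and 5 rose and 5 fell in FGF2/activin EpiSCs (limma, adjusted p under 0.05), with none changing by 2-fold. After quantile normalization the latter split was 3 and 7. Of all genes 46.7% were called in the first comparison (24.7% higher, 22.1% lower) and 61.3% in the second (27.8% higher, 33.5% lower). Between the EpiSC groups 3 were higher and 3 lower, beside 41.6% of all genes called (20.5% higher, 21.1% lower). Nfe2l2, the gene of NRF2, stood at 9.96 in ESCs, 9.81 in CHIR/XAV and 9.5 in FGF2/activin EpiSCs. It fell by 0.46 in FGF2/activin EpiSCs against ESCs (limma, adjusted p = 9.85e-05) and was higher by 0.30 in CHIR/XAV than in FGF2/activin EpiSCs (limma, adjusted p = 0.00405). Keap1 (-0.56 in CHIR/XAV and -0.38 in FGF2/activin EpiSCs) and Mafg, which encodes a small MAF partner (-0.58 and -0.54), fell against ESCs. Bach2, a relative of Bach1, fell too (-0.75 and -0.56). Rbx1, a RING subunit of the ligase that KEAP1 recruits, rose by 0.75 in CHIR/XAV and by 0.18 in FGF2/activin EpiSCs. The small MAF genes Maff (0.49 and 0.48) and Mafk (0.40 and 0.66) rose. Mafk's call in CHIR/XAV EpiSCs was lost without the second ESC array, at 0.34. Bach1 was lower in CHIR/XAV than in FGF2/activin EpiSCs (limma, difference -0.36, adjusted p = 0.000509). Its changes against ESCs, -0.20 and 0.16, were less stable. The first lost its call without ESC array 1 or 2 or CHIR/XAV array 1 or 2 (-0.19 to -0.16). The second lost it without any 1 of the 6 arrays compared (0.15 to 0.17) and turned to -0.03 after quantile normalization.

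The other antioxidant pathway genes, counted here together with the 16 regulators above, went both ways. Of 101 measured genes in 6 lists drawn from pathway knowledge, 28 rose and 40 fell in CHIR/XAV EpiSCs against ESCs, 26 rose and 50 fell in FGF2/activin EpiSCs against ESCs, and 41 were higher and 23 lower in CHIR/XAV than in FGF2/activin EpiSCs (limma, adjusted p under 0.05). Their median differences were -0.03, -0.14 and 0.10, where the medians over all genes were -0.03, -0.08 and 0.05. Over all 19938 genes limma called 46.7% in the first comparison (24.7% higher, 22.1% lower). It called 61.3% in the second (27.8% higher, 33.5% lower) and 41.6% in the third (20.5% higher, 21.1% lower). These shares also stand beside the counts of each list below. The lists were chosen with earlier results known, so nothing is read from the counts.

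In the glutathione system, 6 of 17 genes rose and 6 fell in CHIR/XAV EpiSCs, and 4 rose and 9 fell in FGF2/activin EpiSCs, both against ESCs. Gss, glutathione synthetase, the step after glutamate-cysteine ligase, fell in both (-2.52 and -2.0). Gpx3, a secreted glutathione peroxidase, rose in CHIR/XAV (1.03) and fell in FGF2/activin EpiSCs (-2.21), so that the EpiSC groups differed by 3.24 (SE 0.07, limma, adjusted p = 2.72e-13). Its level in FGF2/activin EpiSCs, 5.12, lay below the array medians and cannot be told from background. Gpx8, a peroxidase of the endoplasmic reticulum, rose by 2.00 and 2.02. Glrx, glutaredoxin, rose by 1.62 in FGF2/activin EpiSCs, and Slc3a2, the heavy chain that partners xCT, fell there (-0.58) and differed by -0.05 in CHIR/XAV EpiSCs, where it was not called.

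Among 21 glutathione transferase and export genes, 7 rose and 11 fell in CHIR/XAV EpiSCs, and 5 rose and 10 fell in FGF2/activin EpiSCs. The mu-class genes Gstm4 (-2.73 and -2.65) and Gstm3 (-2.08 and -2.43) and the alpha-class gene Gsta3 (-2.04 and -1.84) fell in both, and Gstk1, the mitochondrial and peroxisomal kappa-class gene, rose in both (2.19 and 2.07). Members of the mu class are similar in sequence, so their probe sets may share signal. In the EpiSC groups Gstm4 (5.17 and 5.24) and Gsta3 (4.61 and 4.81) lay below the array medians, where levels cannot be told from background. Gsta4, which acts on lipid peroxidation products, differed between the EpiSC groups, higher by 1.22 in CHIR/XAV.

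Of 20 thioredoxin, peroxiredoxin and superoxide genes, 6 rose and 7 fell in CHIR/XAV EpiSCs, and 4 rose and 11 fell in FGF2/activin EpiSCs, or 6 and 9 after median centring. Sod2, the mitochondrial superoxide dismutase, fell (-1.33 and -1.51), as did the methionine sulfoxide reductase gene Msrb2 (-1.47 and -1.54), whereas its paralog Msrb3 rose by 1.74 in FGF2/activin EpiSCs. Txnrd3, a testis-type paralog of Txnrd1, fell (-0.70 and -1.41). Txnrd2, the mitochondrial paralog, rose by 0.33 in CHIR/XAV EpiSCs and differed by 0.18 in FGF2/activin EpiSCs (limma, adjusted p = 0.0508), a difference that was called under 4 other settings and without the third FGF2/activin array.

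In the NADPH supply list 1 of 10 genes rose and 6 fell in CHIR/XAV EpiSCs, and 3 rose and 7 fell in FGF2/activin EpiSCs, the latter split being 3 and 5 with median centring, and 1 and 7 with quantile normalization. Nnt, the mitochondrial transhydrogenase, was higher in CHIR/XAV EpiSCs than in ESCs by 1.76 and than in FGF2/activin EpiSCs by 1.57, and Mthfd2, a mitochondrial folate enzyme, was higher than in FGF2/activin EpiSCs by 1.65. Idh2 fell by 1.37 in CHIR/XAV EpiSCs against ESCs.

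Of the 17 haem, iron and quinone genes, 5 rose and 5 fell in CHIR/XAV EpiSCs, and 5 rose and 8 fell in FGF2/activin EpiSCs. Cbr3, a carbonyl reductase gene, rose in CHIR/XAV (0.52) and fell in FGF2/activin EpiSCs (-1.88), a difference of 2.4 between the EpiSC groups (limma, adjusted p = 1.38e-11). Nqo2, the paralog of Nqo1, stood at 8.04 in ESCs, 8.06 in CHIR/XAV and 7.54 in FGF2/activin EpiSCs, and fell by 0.51 in the last (limma, adjusted p = 0.000189). Slc40a1, the iron exporter ferroportin, rose in both EpiSC groups, by 2.19 and 2.43, and Ephx2, soluble epoxide hydrolase, fell (-1.68 and -2.82). The ESC level of Slc40a1, 5.28, lay below the array medians and cannot be told from background. Hmox2, the constitutive paralog of Hmox1, was called in no comparison, at 8.46, 8.59 and 8.53, except between the EpiSC groups after quantile normalization (0.20).

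**Figure D5:**
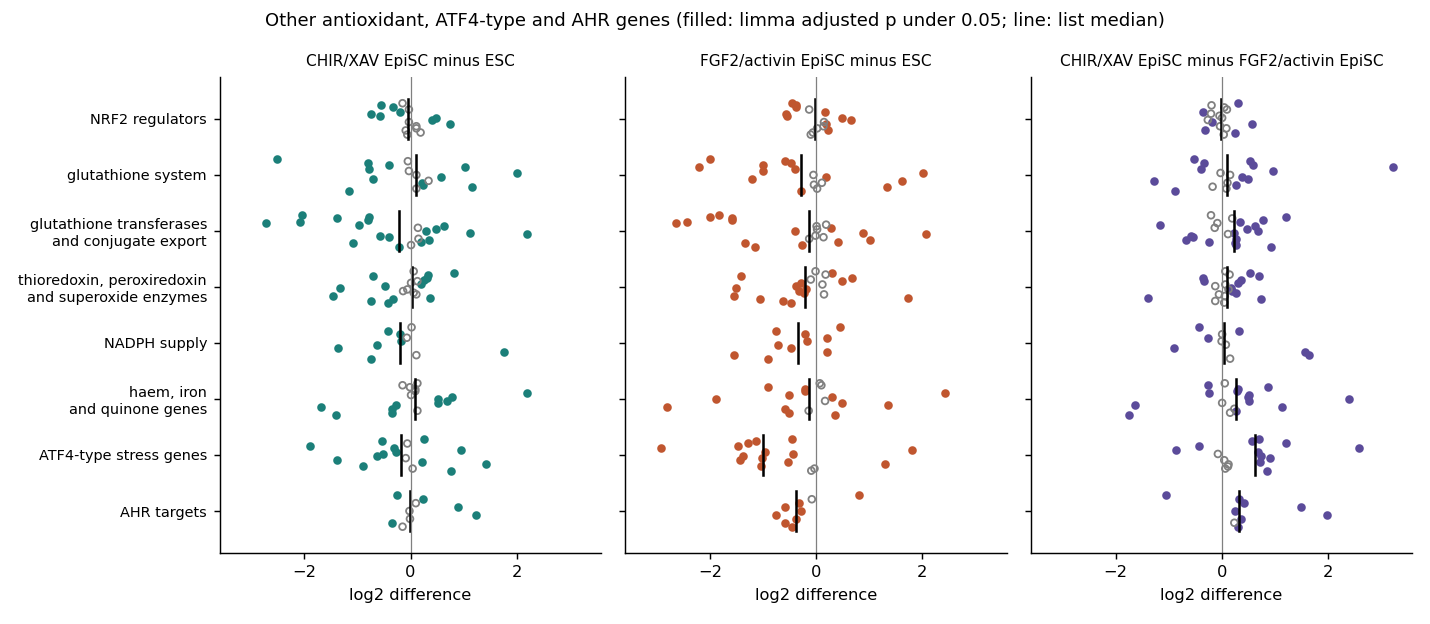
Log2 differences of the genes of 8 lists (rows) in the 3 comparisons (panels); each point is a gene, filled where limma's adjusted p was under 0.05, and the vertical line is the list median. Most lists hold genes on both sides of 0, and the ATF4-type list has a median of -0.99 in FGF2/activin EpiSCs against ESCs.

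Some of the 9 genes are also known as targets of other factors, and 2 lists of such targets were read beside them. Of 16 ATF4-type stress genes, 5 rose and 8 fell in CHIR/XAV EpiSCs and 2 rose and 12 fell in FGF2/activin EpiSCs against ESCs, with medians of -0.19 and -0.99, and 9 were higher and 2 lower in CHIR/XAV than in FGF2/activin EpiSCs. Chac1, a glutathione-degrading enzyme gene induced by ATF4, was at 8.36 in ESCs, 8.03 in CHIR/XAV and 5.44 in FGF2/activin EpiSCs, a change of -2.92 in the last, and Trib3, a pseudokinase gene, fell by 1.28 there. In FGF2/activin EpiSCs both Chac1 and Trib3 (5.23) lay below the array medians, where levels cannot be told from background. Atf4 itself differed by 0.71 between the EpiSC groups. Ddit4 and Atf3 were the pair that rose in FGF2/activin EpiSCs, by 1.81 and 1.30. Nqo1 is also a target of the aryl hydrocarbon receptor (AHR), whose list of 9 genes includes Nfe2l2 and Aldh3a1 from the lists above. Of these, 3 rose and 2 fell in CHIR/XAV EpiSCs against ESCs (median -0.01), 1 rose and 7 fell in FGF2/activin EpiSCs against ESCs, and 7 were higher and 1 lower in CHIR/XAV than in FGF2/activin EpiSCs. Cyp1b1 stood at 5.59 in ESCs, 6.82 in CHIR/XAV and 4.84 in FGF2/activin EpiSCs, and Cyp1a1 at 5.01, 5.90 and 4.41, while Ahr itself was the one that rose in FGF2/activin EpiSCs, by 0.81. Several of these levels lie near or below the array medians. Over all genes limma called 46.7% in CHIR/XAV EpiSCs against ESCs, 61.3% in FGF2/activin EpiSCs against ESCs and 41.6% between the EpiSC groups.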

How the data were processed

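Total RNA of 9 samples in 3 groups of 3 was hybridised to 1-colour arrays. Each deposited log2 value summarises 1 probe set and was made by the authors with RMA in Partek, as the submitters' processing notes name them (versions not given in the sources used here). Values ran from 3.05 to 14.34. Groups came from titles. Of 35399 probe sets, 21789 carried 1 symbol in the platform annotation and were used, 1621 several and 11989 none. Symbols were updated to RefSeq on GRCm38.p6 (19919 of 19938 genes matched), keeping each gene's brightest probe set by mean over the 9 arrays and no filter on dim genes. Limma 3.58.1 in R 4.3.3 was fitted to all 9 arrays without covariates, with Benjamini-Hochberg adjustment over 19938 genes and a threshold of 0.05, after being tested on simulated data. The number of arrays limits the precision.

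The 9 genes and all lists were chosen with earlier results of these data known. Named genes are the 9, the 5 nearest to Nqo1, preset regulators and paralogs, and up to 4 genes with the largest called change per list and comparison. Atf4, Gstt2 and Slc7a3 were added after their values were seen. Of 111 listed antioxidant genes 101 had a probe set of their own. Other settings tried were averaging a gene's probe sets, a filter on the dimmest 40% of genes, robust trended variance, fitting 2 groups at a time, centring on medians, quantile normalization, weighting arrays, a replicate block and omission of each array; the shared Gstp1 probe sets were added after the data were seen.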

Additional observations from a re-analysis of the deposited data

Results flagged for a closer look

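In 4 of the 9 antioxidant genes the EpiSC cultures lay on opposite sides of the ESCs, with every CHIR/XAV array above and every FGF2/activin array below every ESC array. The difference between the EpiSC groups was 3.76 log2 units in Gstp1, 3.22 in Slc7a11, 0.71 in Gclc and 1.23 in Gclm. These differences were not tested, since the genes were chosen with these values known, and the arrangement in Gstp1 was not seen on the 2 probe sets shared with Gstp2.

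In 11 other genes of the 8 lists limma called changes of opposite direction in the EpiSC groups against the same ESC arrays, and the difference between the EpiSC groups was itself called. The lists held 101 antioxidant pathway genes, 16 ATF4-type genes and 9 AHR genes, Nfe2l2 and Aldh3a1 being shared. Of all genes 46.7% and 61.3% were called against ESCs in CHIR/XAV and FGF2/activin EpiSCs. How many of all genes had opposite calls was not counted, so nothing is read from the number of genes. Gpx3 differed by 3.24, Cbr3 by 2.4 and Gstt2, a theta-class glutathione transferase gene, by 0.69, all higher in CHIR/XAV EpiSCs (limma, adjusted p = 2.72e-13, 1.38e-11 and 1.08e-05). Ephx1, microsomal epoxide hydrolase, differed by -1.64, Cyb5r1, a cytochrome b5 reductase gene, by -1.75 and Bach1 by -0.36, all lower in CHIR/XAV EpiSCs (limma, adjusted p = 8.35e-10, 6.7e-11 and 0.000509). Of the ATF4-type list, Atf4 differed by 0.71 and Slc7a3, a cationic amino acid transporter gene, by 0.73, and of the AHR list Cyp1a1 by 1.49 and Cyp1b1 by 1.98, all higher in CHIR/XAV EpiSCs (limma, adjusted p = 1.72e-06, 5.15e-06, 5.16e-10 and 6.18e-11). Ahr differed by -1.05 (limma, adjusted p = 6.22e-08), but its fall against ESCs in CHIR/XAV EpiSCs (-0.25) lost its call without ESC array 3 (-0.18) or CHIR/XAV array 1 (-0.20). For Bach1 the opposite directions did not hold after quantile normalization. The levels of Gpx3 (5.12), Cyp1a1 (4.41) and Cyp1b1 (4.84) in FGF2/activin EpiSCs lay below the array medians. The rise of Slc7a3 against ESCs in CHIR/XAV EpiSCs was small and close to the threshold (0.21, limma, adjusted p = 0.0453). Atf4, Gstt2 and Slc7a3 were named after their values were seen. Groups of 3 arrays are too small for the check on single outlying arrays.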

How the results depend on the processing

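With 1 array left out at a time, all 243 recomputed differences of the 9 genes moved by less than the spread between arrays, and under the other settings 97 did so, 15 moved by more and 2 turned in groups that did not overlap. The latter are those of Gstp1 in CHIR/XAV EpiSCs against ESCs, -1.16 and -1.02 on the probe sets shared with Gstp2; the cause was not tested. Between overlapping groups the sign also turned for Nqo1 in CHIR/XAV EpiSCs against ESCs (0.01 with median centring or without ESC array 2, and 0.02 without CHIR/XAV array 3) and for Txnrd1 in FGF2/activin EpiSCs against ESCs (-0.05 with quantile normalization). The number of genes following Nqo1 in CHIR/XAV EpiSCs against ESCs was 2 and became 6 after median centring. With single arrays left out it ran from 2 to 6. It turns on the sign of a difference of -0.02 in Nqo1. Between the EpiSC groups the number ran from 7 to 8 with single arrays left out. In FGF2/activin EpiSCs against ESCs it stayed at 6. Among the named list genes Bach1 in FGF2/activin EpiSCs against ESCs turned to -0.03 after quantile normalization; the cause was not tested. Deviations of same-numbered arrays from their group means correlated by -0.071 to 0.239, so the numbers were not taken as pairs. With a replicate block limma called 9325, 12202 and 8246 genes (CHIR/XAV against ESCs, FGF2/activin against ESCs, and between the EpiSC groups), where it called 9320, 12218 and 8300 without it, and among the named genes the block changed only the calls of Bach1 (0.16, lost) and Mafk (-0.26 between the EpiSC groups, gained). There are no detection calls, so the low levels of Nqo1 and Slc7a11 in FGF2/activin EpiSCs cannot be told from background.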
